A study of Nothobranchius furzeri with 16 samples.

Results

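A group of 150 genes was examined whose values in killifish adipose tissue were higher in refed than in fasted fish at both ages. They were chosen among 18606 fish genes by the values themselves. A gene was eligible if its mean over 16 fish was at least 100 normalized units and it was not among the 50 genes of highest mean, which left 11685 genes. In 1702 of these, 14.6%, every refed fish lay above every fasted fish of its own age, in old and in young fish alike. This number holds for the values as deposited and was larger on other scales, as given at the end. Of those 1702, the 150 with the largest refeeding difference were kept, where each gene was ranked by the smaller of its differences in old and in young fish. A difference is the mean log2(value + 1) of refed minus that of fasted fish. Refeeding differences of these genes, and the age differences within refed or within fasted fish that share their groups, are therefore given as a description without a test.

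Fat tissue is a store that animals draw on during a fast. The fish were males of the turquoise killifish Nothobranchius furzeri, strain GRZ-AD, a short-lived annual fish kept as an inbred laboratory strain and housed singly here. The 16 fish were divided into old refed, old fasted, young refed and young fasted groups of 4 separate animals each, with labelled ages of 18 weeks for old and 7 weeks for young fish. Refed fish had 24 h of food after a fast of 72 h, and fasted fish had the fast alone. Every group had thus been fasted, none was fed throughout, and a refeeding difference cannot be read as a return to or a departure from the fed state. All groups were wild type per the labels.

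During a fast, adipocytes break down stored triglyceride and release fatty acids for other tissues. After a meal, insulin and nutrient signals restrain this release, and fat tissue takes up glucose and fatty acids, makes new lipid and raises the synthesis of protein and ribosomes. Transcript levels of many enzymes of fatty acid, triglyceride and sterol synthesis rise in fed adipose tissue of mammals. Which of the 150 genes belong to such pathways was not analysed here, because 0 of the 18606 identifiers could be found among the 38438 genes with symbols in the RefSeq annotation. The labelled tissue was not checked against adipocyte markers or markers of other cell types for the same reason. In a sample of whole tissue, fewer cells of a type and less RNA per cell cannot be told apart.

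The unit of all values is the authors' normalized signal per gene, whose median lay between 155 and 168 units in every fish. Totals over all genes were 14.3 to 17.0 M units in old refed, 19.0 to 21.3 M in old fasted, 21.0 to 26.6 M in young refed and 24.5 to 28.3 M in young fasted fish. A rough estimate of depth from the spacing of low values gave 20.2 to 38.1 M reads in old fish and 39.8 to 51.2 M in young fish. On this estimate every old library was shallower than every young one, but 38.1 and 39.8 M lie close for so rough a measure. The level of the ERCC spike-ins, synthetic RNAs added to each sample, was lower in refed than in fasted fish by 0.66 log2 units in old and by 0.71 in young fish on the deposited scale. Their part in the results below was tested only by rescaling the values, and depth and age cannot be told apart.

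The 150 genes together were higher in all refed than in all fasted fish. Their summed value was 116311, 132490, 129538 and 137032 units in the 4 old refed fish, against 65523, 44833, 42401 and 47089 units in the old fasted fish. In young fish it was 159251, 183692, 228937 and 223676 units after refeeding, against 31979, 36187, 35703 and 36772 units in fasting. Young fish thus lay at both ends, with old refed and old fasted fish between them and no overlap among the 4 groups. The same order was seen in the mean of log2(value + 1) over the genes, in which each gene counts alike. This mean was 8.71 ± 0.05 in old refed and 7.48 ± 0.25 in old fasted fish (SD, n = 4 each). In young fish it was 9.13 ± 0.25 after refeeding and 7.07 ± 0.04 in fasting (SD, n = 4 each). Refed minus fasted was therefore 1.23 log2 units in old and 2.06 in young fish. As a share of the total of all genes, the sum was 0.695% to 0.907% in old refed and 0.216% to 0.308% in old fasted fish. In young fish the share was 0.598% to 1.09% after refeeding and 0.129% to 0.130% in fasting, so that the ranges of the refed groups of both ages overlapped on this scale.

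**Figure D1:**
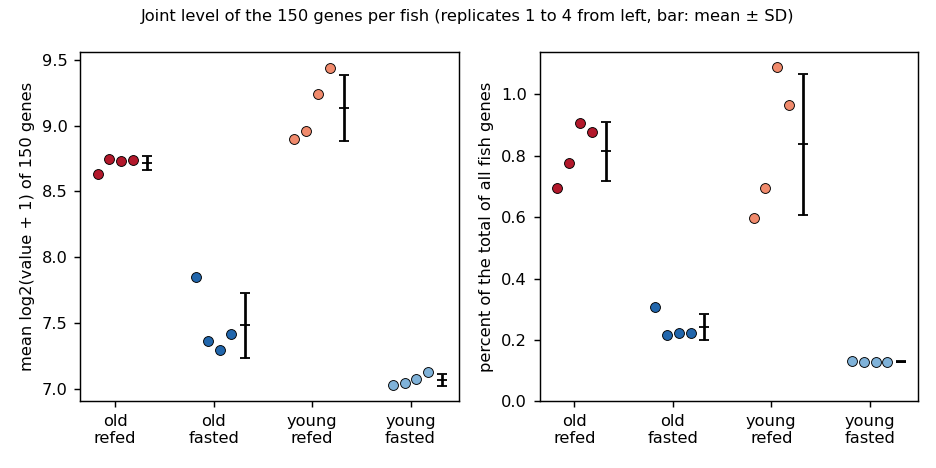
Joint level of the 150 genes in each of the 16 fish, as the mean log2(value + 1) over the genes (left) and as a percentage of the total of all fish genes (right). Points are fish in the order of their replicate numbers and bars give the mean ± SD of 4 fish. Old refed fish sit between 8.63 and 8.75 and old fasted fish between 7.29 and 7.85 on the left, and old fasted replicate 1 is the highest fasted fish in both panels.

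The 2 genes at the head of the ranking stood apart from the rest. ENSNFUG00015018457, ranked first, had 234, 337, 257 and 511 units in old refed fish, against 95.1, 28.9, 36.0 and 19.2 units in old fasted fish. In young fish it had 478, 502, 1354 and 1560 units after refeeding, against 18.3, 21.7, 16.4 and 11.4 units in fasting. All refed fish were above all fasted fish, and young refed replicates 3 and 4 were far above replicates 1 and 2. The differences were 3.06 log2 units in old and 5.59 in young fish.

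ENSNFUG00015014261, ranked second, was also the most abundant of the 150 genes. It had 15871, 18692, 20455 and 26557 units in old refed fish, against 7433, 1927, 2448 and 2234 units in old fasted fish. In young fish the values were 19196, 37827, 54811 and 42550 units after refeeding, against 673, 936, 695 and 878 units in fasting. Old fasted replicate 1 was above the other old fasted fish, and the ranges of old and young refed fish overlapped. The differences were 2.75 log2 units in old and 5.52 in young fish. Without these 2 genes, the summed value of the other 148 was 100206 to 113461 units in old refed and 39917 to 57995 units in old fasted fish. It was 139577 to 179566 units in young refed and 31288 to 35883 units in young fasted fish, so the order of the groups did not rest on them.

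**Figure D2:**
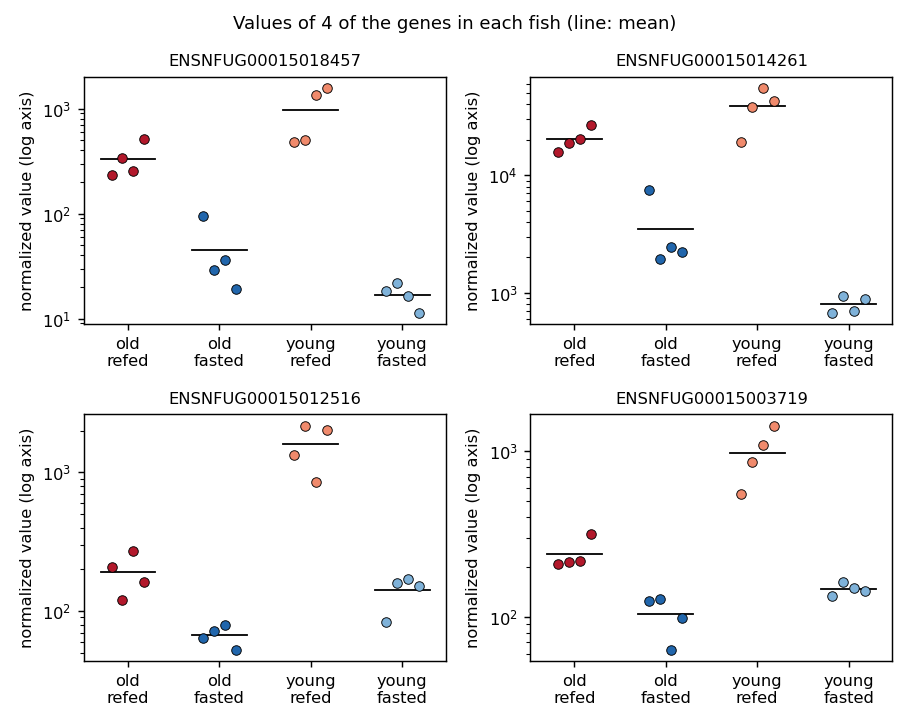
Normalized values, on a log axis, of 4 of the 150 genes in each fish, with points in the order of replicate numbers and a line at the mean of 4 fish. ENSNFUG00015018457 and ENSNFUG00015014261 (top) have the largest refeeding differences, and ENSNFUG00015012516 and ENSNFUG00015003719 (bottom) are the 2 with the largest fall in old relative to young fish among the genes called in the age comparison.

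Below these 2, differences were smaller, at most 2.03 log2 units in old and 3.89 in young fish. In ranks 3 to 10 they ran from 1.63 to 2.03 log2 units in old fish and from 1.92 to 3.36 in young fish. Over all 150 genes the difference in old fish was 0.96 to 3.06 log2 units, with a median of 1.18 and quartiles of 1.04 and 1.33. In young fish it was 1.00 to 5.59, with a median of 1.97 and quartiles of 1.68 and 2.35. The median over all 11685 eligible genes was 0.00 in old and -0.01 in young fish. As a ratio of group means of the values, the median was 2.24 in old and 4.01 in young fish. The ratio was at least 2 in 123 genes in old and in 149 in young fish. It was at least 4 in 3 genes in old and in 75 in young fish, and it reached 8 in none in old and in 12 in young fish. The end of the ranking was not marked by a step. Ranks 149 and 150 had a smaller difference of 0.965 and 0.963, and the first genes left out, ranks 151 and 152, both had 0.961.

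In 145 of the 150 genes, 96.7%, the refeeding difference was smaller in old than in young fish. This was not particular to them, since it held in 1488 of the 1552 other genes without overlap at both ages, 95.9%. By size, whatever the direction, the difference was smaller in old fish in 8596 of the 11685 eligible genes, 73.6%. The difference in old fish was 59.2% of that in young fish at the median, with quartiles of 52.1% and 69.4% and a range of 32.1% to 161%. It was under 50% in 24 genes, 50% to under 75% in 99, 75% to 100% in 22 and over 100% in 5. The lowest percentage belonged to the gene ranked 48th, with mean values of 1050 units in old refed and 424 units in old fasted fish, against 1804 units in young refed and 126 units in young fasted fish. The gene of rank 3 had nearly the same refeeding difference at both ages, 2.03 log2 units in old and 2.17 in young fish, with means of 908 units in old refed and 203 units in old fasted fish, and of 666 units in young refed and 136 units in young fasted fish. Both were picked out after their values were seen. The 150 genes chosen by the mirrored rule, higher in fasted fish at both ages, had a median of 76.2% and a smaller size in old fish in 128 of 150. In the 1552 other genes without overlap, the median difference was 0.45 log2 units in old and 0.89 in young fish.

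**Figure D3:**
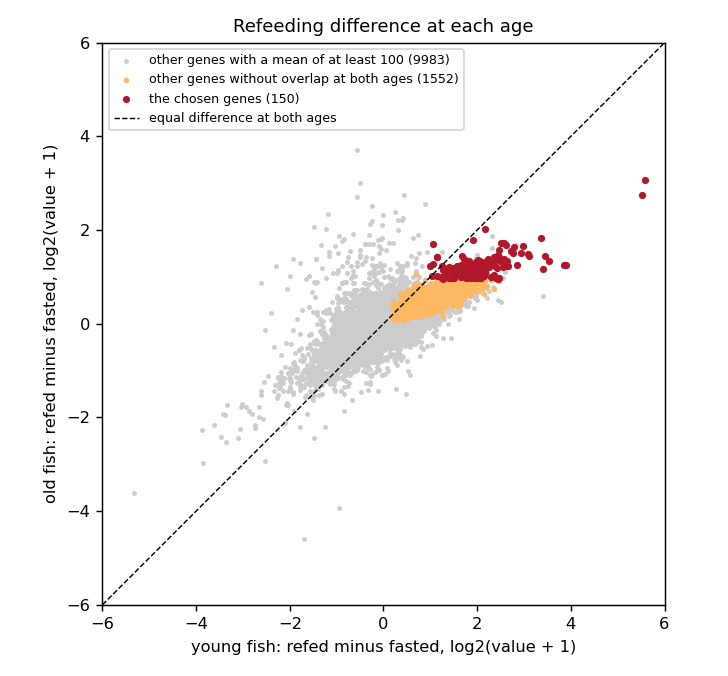
Refeeding difference in young fish (horizontal) and in old fish (vertical), both as refed minus fasted in log2(value + 1), for the 150 chosen genes, the 1552 other genes without overlap at both ages and the remaining eligible genes. Most chosen genes lie right of the dashed line of equal difference, 145 of 150, and the 2 genes at the far right have differences of 5.59 and 5.52 in young fish.

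On the deposited scale, the smaller difference in old fish had a part in each feeding state. Among refed fish, old minus young had a median of -0.42 log2 units over the 150 genes, with 124 lower in old, a direction that turned on another scale. The median over the eligible genes was -0.01, with 51.5% of them lower in old. Among fasted fish, old minus young had a median of 0.39, with 130 of the 150 higher in old, against 0.02 and 53.7% over the eligible genes. The 1552 other genes without overlap had the same directions, with medians of -0.27 in refed and 0.16 in fasted fish. The group means stood in the order young refed, old refed, old fasted and young fasted, from high to low, in 105 of 150 genes, 70.0%, and in 1006 of the 1552 other genes without overlap, 64.8%. Single fish separated less often. Every old refed fish was below every young refed fish in 50 of the 150 genes, against 19.5% of eligible genes. Every old fasted fish was above every young fasted fish in 50, against 14.5% of eligible genes. Both held in 9 of the 150, against 1.89% of eligible genes and 121 of the 1552 other genes without overlap between refed and fasted fish, 7.8%. For each separation alone, the share of those 1552 genes was not computed, so it is not shown to be particular to the 150.

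The direction among refed fish depended on the scale. The 50 genes of highest mean held on average 47.4% of the total in old refed and 63.1% in young refed fish. In fasted fish they held 56.7% in old and 67.9% in young fish. Their part in values divided by the total, or taken as a share of it, was not tested. With each fish divided by its total (log2 CPM), the median of old minus young in refed fish was 0.19 with 48 of 150 lower in old, and scaled to the spike-ins it was -0.14 with 99 lower in old. The median of all genes itself moved to 0.63 on CPM and 0.31 on the spike-in scale in this comparison. A scaling moves all genes of a fish alike, so the distance of the 150 genes from the median of all genes is fixed by construction and is no independent sign. Among fasted fish the median was 0.77 on CPM and 0.71 on the spike-in scale, with 145 and 143 of 150 higher in old and medians of all genes of 0.39 and 0.32. The refeeding difference was smaller in old fish in 137 genes on CPM and in 145 on the spike-in scale.

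**Figure D4:**
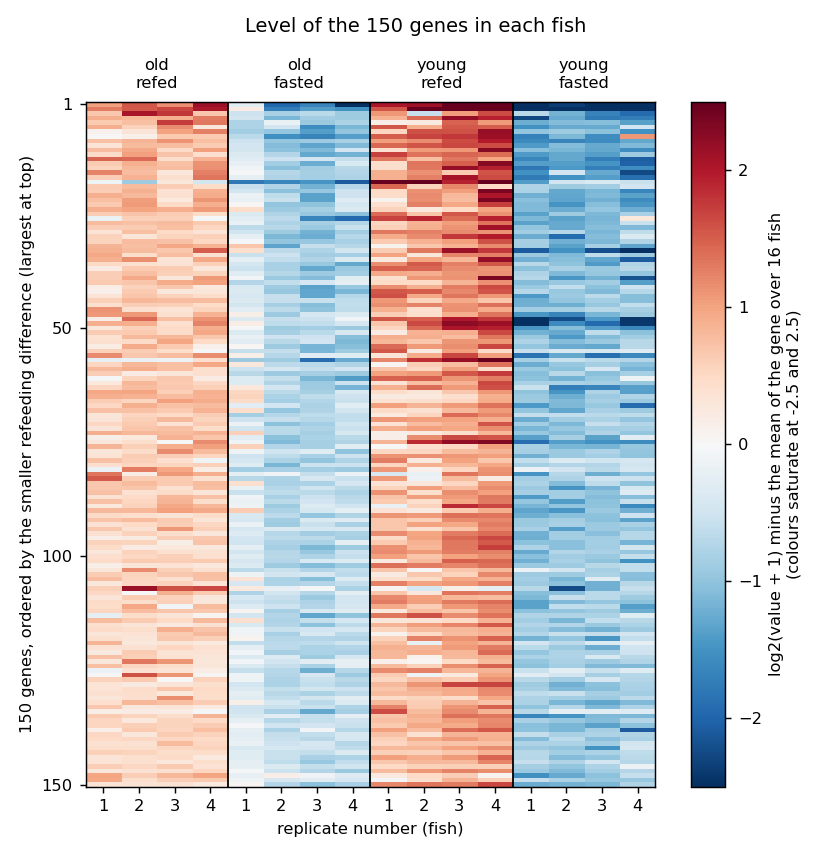
Level of each of the 150 genes (rows, in the order of their ranking) in each of the 16 fish (columns), as log2(value + 1) minus the mean of the gene over all fish, with colours saturating at the ends of the scale. The deepest reds and blues are in young refed and young fasted fish, and the column of old fasted replicate 1 is paler than those of the other old fasted fish.

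The fish of a group were not alike in these genes. Old fasted replicate 1 had the highest value of its group in 122 of the 150 genes, whereas it was the highest in 30.5% of eligible genes. Its mean deviation from its group was 0.37 log2 units over the 150 genes and 0.03 over the eligible genes. Young refed replicate 4 was the highest of its group in 95 of the 150 genes, against 25% of eligible genes, and deviated by 0.31 log2 units. Young refed replicate 1 was the lowest of its group in 77, and the share of eligible genes in which it was lowest was not computed. Its mean deviation was -0.24 log2 units over the 150 genes and -0.02 over the eligible genes. All 8 refed fish, old and young, lay above all 8 fasted fish in 129 of the 150 genes. The share was 11.8% of eligible genes, but the rule itself chose for part of this order, and it held in 1252 of the 1552 other genes without overlap at both ages, 80.7%. Without old fasted replicate 1 it held in 143 of the 150 genes, in 14.4% of eligible genes and in 83.0% of the 1552, counts added after the values of this fish were seen.

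The distance between the lowest refed and the highest fasted fish was narrower in old fish. Its median was 0.58 log2 units in old fish, with a range of 0.00187 to 1.29, against 1.33 in young fish, with a range of 0.04 to 4.40. It was over 1 log2 unit in 7 genes in old and in 113 in young fish, and it was wider in young fish in 137 of 150. This distance was not computed for other genes, so it is not shown to be particular to the 150. The SD within groups had a median of 0.29 log2 units over the 150 genes, against 0.17 over the eligible genes, 0.15 over the other 1552 genes without overlap and 0.35 over the 150 genes higher in fasting. Deviations of the fish from their group means ran in parallel across the genes. The median Pearson correlation between 2 of the 150 genes was 0.32 over 16 fish, and 82.4% of the pairs were above 0. It was 0.41 between genes higher in fasting and 0.008 between eligible genes. These correlations share the same fish, depth and scaling, and are a description.

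The 150 genes covered a wide range of abundance. Mean values ran from 100.2 to 15824 units with a median of 272, and 57 genes were at 100 to 200 units, 52 at 200 to 500, 23 at 500 to 1000 and 18 above. None had a value under 10 units in any fish. None was among the 268 rows of the table that have the same values in all fish as another row.

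The comparison of old with young fish averaged over both feeding states was the contrast that the choice of genes did not use, and it was tested with limma over all 18606 genes. It asks whether a gene was higher or lower in old fish on the average of the 2 feeding states, which need not share a direction. Of the 150 genes, 13 were higher in old fish at a Benjamini-Hochberg adjusted p under 0.05, 8.67%, against 11.6% of all genes and 13.7% of eligible genes. Lower in old fish were 20, 13.3%, against 11.4% of all genes and 15.5% of eligible genes. With all 16 fish these shares were near the background and are not a result about the 150 genes. The median difference was 0.00 log2 units, with quartiles of -0.22 and 0.20 and a range of -2.03 to 1.30. Both counts depended on the scale, as the median of all genes was 0.50 on CPM and 0.31 on the spike-in scale, against 0.01 on the deposited scale. On CPM 109 of the 150 genes were higher and 2 lower in old fish, against 79.0% and 1.56% of all genes. On the spike-in scale 57 were higher and 5 lower, against 53.5% and 2.69% of all genes. With a fish left out, between 6 (without young refed replicate 2) and 19 genes (without young refed replicate 4) were higher, against 10.1% and 10.6% of all genes. Between 13 (without old fasted replicate 3) and 29 were lower, against 9.31% of all genes for the 13. The 29 were found without old fasted replicate 1, the fish that stood apart, and were 19.3% of the 150 genes, against 11.3% of all genes and 15.4% of eligible genes. This fish was the highest of its group in 122 of the 150 genes, so leaving it out lowered the old mean more in them than in the eligible genes. With groups of unequal size, the comparison is also not independent of the refeeding differences that chose the genes. The share without this fish is therefore a description and not a result about the 150 genes.

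The 20 genes lower in old fish had differences of -2.03 to -0.25 log2 units, and 13 of them were lower in old fish in each feeding state. ENSNFUG00015012516, ranked 18th by refeeding, had the largest fall. It had 207, 120, 272 and 161 units in old refed fish, against 1347, 2173, 847 and 2008 units in young refed fish. In fasting it had 64.2, 71.6, 79.6 and 52.2 units in old fish, against 83.6, 160, 170 and 152 units in young fish. Every old fish was below every young fish of its feeding state. The difference was -2.03 log2 units (SE 0.22, adjusted p = 1.95e-05 by limma). The gene was picked for its fall among the called genes, so its separation by age is a description.

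ENSNFUG00015003719, ranked 57th, had the next largest fall. Its values were 207, 213, 218 and 317 units in old refed fish, against 554, 861, 1082 and 1423 units in young refed fish. In fasting they were 125, 127, 62.9 and 98.5 units in old fish, against 133, 161, 150 and 143 units in young fish. Here too the old fish were all below the young fish of the same feeding state, by a wide margin after refeeding and a narrow one in fasting. The difference was -1.26 log2 units (SE 0.18, adjusted p = 0.000185 by limma).

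The 13 genes higher in old fish had differences of 0.32 to 1.30 log2 units, and 10 of them were higher in old fish in each feeding state. The largest belonged to the gene ranked 107th, which also had the highest ratio of old to young refeeding difference, 161%, and was picked out after its values were seen. It had 120.1 to 355.9 units in old refed and 45.6 to 93.5 units in old fasted fish, against 58.0 to 87.3 units in young refed and 16 to 52.7 units in young fasted fish. Its old and young ranges were apart after refeeding and overlapped in fasting. The 2 genes with the largest refeeding differences were not called, and were also tested by exact permutation of age within feeding states, two-sided, over 4900 arrangements. ENSNFUG00015018457 differed by -0.14 log2 units between old and young fish (SE 0.32, adjusted p = 0.812 by limma, exact permutation p = 0.79). ENSNFUG00015014261 differed by 0.53 (SE 0.26, adjusted p = 0.158 by limma, exact permutation p = 0.28), and was called higher in old fish on CPM and on the spike-in scale. So were 79.0% and 53.5% of all genes on these scales.

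**Figure D5:**
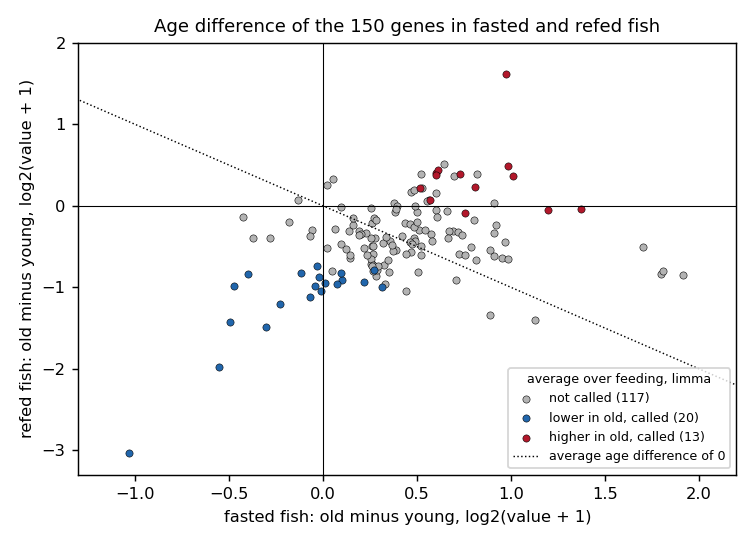
Old minus young in log2(value + 1) of the 150 genes among fasted fish (horizontal) and among refed fish (vertical), coloured by the limma call averaged over feeding on the deposited scale, 13 higher and 20 lower in old fish. The dotted line marks an average age difference of 0, and the lowest point is ENSNFUG00015012516 with -3.03 after refeeding and -1.03 in fasting.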

How the data were processed

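RNA of adipose tissue from 16 fish was sequenced after removal of ribosomal RNA. Per the labels and the methods, the authors used kallisto 0.45.0 with the genome Nfu_20140520, and DESeq2 1.24.0. Each deposited value is a gene-level signal that the authors had normalized, not a whole number, by a scaling that is not given in the sources read. Low values were within 0.1 of a whole step in only 61.1% to 76.9% of cases per fish, so reads were not recovered, a count test was not run, and the depths are approximate.

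The 74 spike-in rows were left out. Values of 18606 genes were fitted as log2(value + 1) with limma 3.58.1 (eBayes with trend, R 4.3.3), 16 fish in 4 groups in a single fit. This scale understates changes of low genes. Exact tests enumerated every arrangement, and the limma fit of the age comparison was tested on simulated data. Each gene was simulated independently, so this does not cover deviations that run in parallel across genes, as in the 150. The 150 genes, the lists and the tests were chosen with earlier results of these data known. Named were, by identifier, the 2 genes of largest refeeding difference and the 2 of largest fall with age among those called. Lists of lipid, sterol, ribosome, folding and cell cycle genes and of cell type markers need symbols and were not used. No batch is given, and RNA was extracted at the same time. Alternatives were log2 CPM (prior count 2), scaling to the 42 spike-ins with a mean of at least 100 or by the median of ratios, pseudocounts of 0.1 and 5, other mean minimums, a robust fit, a replicate block, a threshold of 0.01 and each fish left out.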

Additional observations from a re-analysis of the deposited data

Results flagged for a closer look

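The summed value of the 150 genes was lower in old than in young fish after refeeding, by -0.61 as the difference between the mean log2 sums of the fish, and higher in fasting, by 0.49. Their mean log2 level likewise differed by -0.42 log2 units after refeeding and by 0.41 in fasting. Every fish followed these opposite directions, and the difference between them was not tested, since it is made of the contrasts that chose the genes. As a share of the total of all genes, the ranges of old and young refed fish overlapped.

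A fish far from the others was sought in 28 sets of 4 values, from several quantities in the same 4 groups of fish. These sets share fish and genes and are not independent. The measure was the gap to the neighbour as a share of the range of the set. This share had a critical value of 0.829, which chance passes in about 1 set in 20. It was 0.835 for the mean log2 level in old refed fish, where replicate 1 was low. It was 0.909 for the share of the total in old fasted fish and 0.905 for ENSNFUG00015014261 in old fasted fish, where replicate 1 was high. For ENSNFUG00015003719 in old refed fish it was 0.902, where replicate 4 was high.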

How the results depend on the processing

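Of the 150 genes, 13 were called higher and 20 lower in old fish. On log2 CPM the counts were 109 and 2 (79.0% and 1.56% of all genes), on the spike-in scale 57 and 5 (53.5% and 2.69%), and at an adjusted p under 0.01 they were 3 and 10 (5.89% and 6.36%). With each fish left out they ranged from 6 to 19 higher and from 13 to 29 lower. The 19 were found without young refed replicate 4 (10.6% of all genes) and the 29 without old fasted replicate 1 (11.3%). Higher in old were 8 without old refed replicate 4 (10.2%), 7 without young refed replicate 1 (9.74%) and 6 without young refed replicate 2 (10.1%). Lower were 13 without old fasted replicate 3 (9.31%). With the replicate block, 10 were higher and 17 lower (10.4% and 10.3% of all genes). In 24 pairs of fish of the same replicate number, correlations of deviations ran from -0.34 to 0.28, with 3 over 0.1. Fish of different numbers were not compared, so these values cannot show whether the numbers pair the fish. The age difference of ENSNFUG00015018457, not called, was -0.36 at its lowest with a fish left out (old fasted replicate 1) and became positive on CPM (0.33), on the spike-in scale (0.15), without old fasted replicate 4 (0.016) and without young refed replicate 4 (0.011). That of ENSNFUG00015014261 passed the threshold on CPM (1.04, adjusted p = 0.00218 by limma) and on the spike-in scale (0.83, adjusted p = 0.0168 by limma), where the median of all genes was 0.50 and 0.31. ENSNFUG00015012516 and ENSNFUG00015003719 passed it in the same direction under all 25 alternatives run for each. The median refeeding difference in old fish was 1.55 on CPM and 1.84 on the spike-in scale, where the median of all genes was 0.38 and 0.67 against 0.02 on the deposited scale, and 1.12 to 1.29 with a fish left out. In young fish it was 2.68 on the spike-in scale, where that of all genes was 0.60 against -0.10, and 1.88 to 2.04 with a fish left out. On log2 CPM, 3218 of the 11685 eligible genes had no overlap at both ages, and 132 of the 150 genes were chosen again. On the spike-in scale these numbers were 7060 and 129, against 1702 without overlap on the deposited scale. By the median of ratios they were 1669 and 150. With a mean of at least 50 units, the rule chose 111 of the 150 genes again, and genes with means of 50 to 100 units took the other places. With a mean of at least 200 units, the rule chose 93 of the 150 genes again. The other 57 had means of 100 to 200 units and were no longer eligible. A higher minimum leaves the order of the remaining genes unchanged, so every gene still eligible was bound to be kept. With a fish left out, 119 to 149 were chosen again, 119 without old fasted replicate 1. Apart from the mean minimums, the cause of these changes was not tested, other than that fewer fish enter when a fish is left out.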
